A study of Tripsacum dactyloides with 133 samples.

Results

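Tandem arrays are rows of neighbouring genes that belong to one family, and they were examined in the crown roots of eastern gamagrass (Tripsacum dactyloides), a perennial grass related to maize. Genes of the deposited count table were sorted by chromosome and start, and a run was counted as an array where at least 4 successive genes carried the same orthogroup with no other gene between them. An orthogroup is a set of gamagrass and maize genes that the authors traced to one ancestral gene. Of 99 such runs, the 50 with most genes were taken, which gave 285 genes of the 45865 in the table. Runs of equal size were ordered by chromosome name and then by start, so that 16 of the 65 runs of 4 genes were included. Position and orthogroup alone chose the members, so levels and drought responses were not used in the choice.

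RNA was sequenced from plants of the cultivar Pete raised in growth chambers. Live soil inoculum had been given to 63 plants under drought and 62 well-watered plants of the test phase, and a mock inoculum to 8 plants, 4 per water treatment. The live inocula came from 4 sites, CWR, WEL, SVR and TRI, each with 16 drought and 16 well-watered plants except WEL with 15 and 14. The study counts CWR and WEL as high-precipitation and SVR and TRI as low-precipitation legacy, whereas the labels name only the site. In an earlier conditioning phase every live inoculum had passed through pots that were drought stressed or well watered and held gamagrass or no plant. Each library is 1 plant, but the labels do not say which plants shared an inoculum pot. The drought libraries held 13.6 to 64.2 M counts (median 52.8) and the well-watered ones 1.14 to 69.4 M (median 26.1), with 2 and 34 libraries below 30 M. Every drought plant has a lower plant number than every well-watered plant, so plant number and water supply cannot be told apart. The deposited tables pair no identifier with a gene name, and neither crown root markers nor the functions of the members were examined here.

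Local duplication places copies of a gene side by side, and unequal crossing over can then lengthen or shorten the row. Copies that arise this way may stay alike, take over part of the work of the ancestral gene, gain a new pattern or decay into pseudogenes. In plants, such rows are common in families that act in defence and in specialised metabolism. Because copies are alike in sequence, a short read often fits several of them, and their levels are then measured together.

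The arrays ranged from 4 to 12 genes, lay on 17 chromosomes or scaffolds and came from 47 orthogroups. In 28 arrays all genes lay on 1 strand, and 41 arrays were matched to 1 maize gene. In 22 arrays some members overlapped each other on the genome, 87 members in all, and in 15 arrays every member overlapped another of its array. Many such rows hold long gene models with shorter models nested in them or opposite to them. Array 15 instead holds opposite models of nearly equal length, 570 to 579 bp. The count table was made without strand information, so that the same reads entered several models. Over the members the median share of non-zero values that were not whole numbers, which marks reads split among genes or places, was 45.2% against 4.30% over all genes. It was 62.9% in the other runs of at least 4 genes and 48.5% in runs of 2 or 3 genes of an orthogroup. A value of a member is therefore often a share of the reads of several copies.

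Most copies were weakly expressed or not detected. A gene was called expressed when its median over the live libraries reached 1 CPM (counts scaled to the library total), and 74 of the 285 members did (25.96%), against 25851 of all 45865 genes (56.4%). The share was 43.4% in the other runs of at least 4 genes, 61.4% in runs of 2 or 3 genes of an orthogroup and 64.99% in single genes with an orthogroup. In the live libraries 38 members had no rounded count at all. Expression went with overlap: 50 of the 87 members that overlapped another member were expressed (57.5%), against 24 of the 198 that overlapped none (12.1%). Among the 28 arrays without overlapping members, 4 held an expressed copy, namely arrays 6, 16, 18 and 23 in the order of array size. With mean TPM (counts per length of the gene span, introns included, scaled to the library) the copies spread over several orders of magnitude (plot of the level of each copy).

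**Figure D1:**
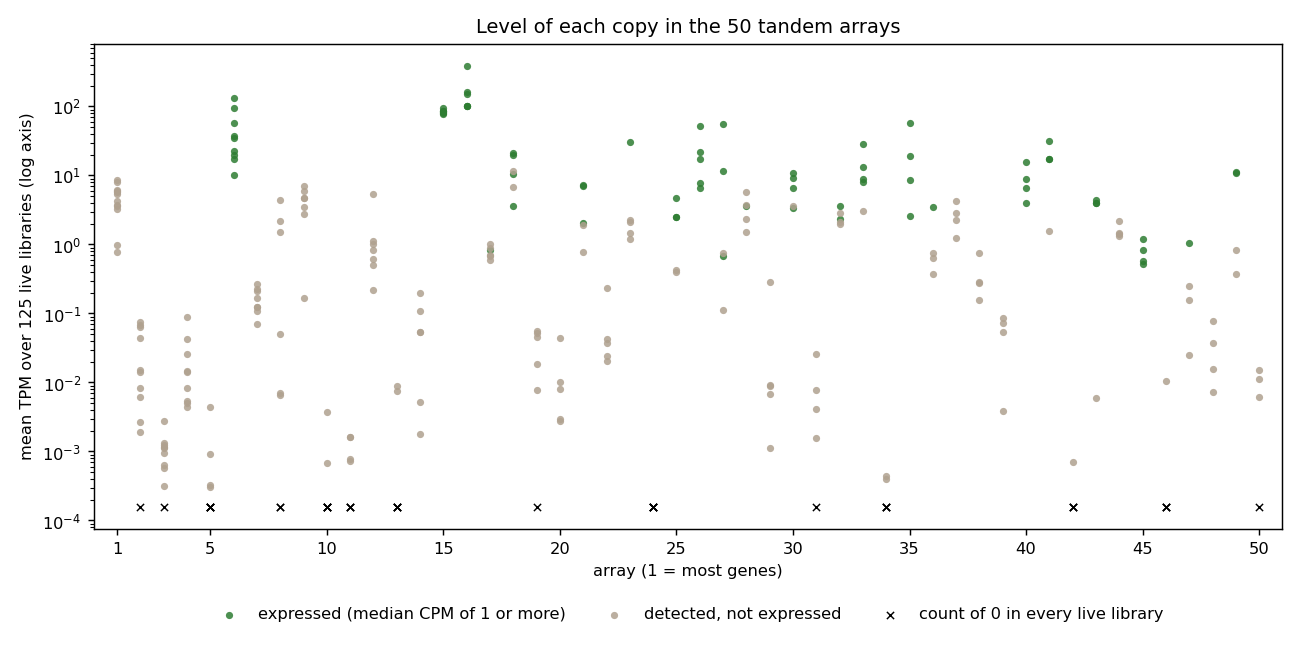
Mean TPM over the live libraries on a log axis for each copy (points) of the 50 arrays (x axis, ordered from most to fewest genes), with crosses for copies at a count of 0 in every live library. The 74 expressed copies (green) sit in 22 arrays, the highest in array 16, and the other 28 arrays hold none.

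In 28 arrays with 175 members no copy was expressed, in 7 arrays all copies were, and in 15 arrays some were. In 5 of the 7 arrays with all copies expressed, every member overlaps another of its array, so these models share reads. The copy with the highest mean TPM in each of the 10 largest arrays shows how low most of these rows were. In array 2 on chromosome 1 (11 copies) this was Td00002ba004446, which had a count in 9 live libraries and reached at most 0.198 CPM. In array 3 on chromosome 10 (10 copies) it was Td00002ba030475, counted in 8 libraries. In array 5 on chromosome 16 (9 copies) it was Td00002ba042284, counted in 9 libraries, and in array 10 on chromosome 14 (7 copies) it was Td00002ba038396, counted in 3. The 5 copies of array 24 had no count in any live library. These copies were near or at the limit of detection at this depth.

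A second set of large arrays was detected in 67 to 120 of the live libraries without reaching 1 CPM. Td00002ba041248 of array 4 (chromosome 15, 9 copies) had a median of 0.0165 CPM, Td00002ba032575 of array 7 (chromosome 11, 8 copies) 0.0614, Td00002ba036284 of array 9 (chromosome 12, 7 copies) 0.289 and Td00002ba033018 of array 8 (chromosome 11, 8 copies) 0.468. Array 1, the longest row, lay on chromosome 17 with 12 copies on the plus strand. Its top copy Td00002ba043424 had a median of 0.779 CPM, and all 12 copies were detected. Of the 10 largest arrays, array 6 was the one with expressed copies.

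How much of an array's level the top copy held varied widely. In the 17 arrays with at least 2 expressed copies the top copy took a median of 38.5% of the summed mean TPM, with a range of 18.5% to 80.7%. It held over 50% of the TPM in 2 of these arrays, and the copy with the highest CPM held over 50% of the CPM in 6. Apart from arrays 6, 16 and 18, all of these arrays hold overlapping members, among which shared reads were divided. The shares in those arrays, arrays 15 and 27 included, are therefore not levels of separately counted copies. The lowest share was in array 15 on chromosome 14, where the 6 copies held 77.4 to 93.8 TPM. The highest share was in array 27 on chromosome 17, where Td00002ba043318 (55.6 TPM, chosen after its values were seen) stood beside 4 copies of at most 11.8 TPM. In array 16 on chromosome 3, Td00002ba011924 had the highest level of all members with 385 TPM, 38.3% of its array, and the other 5 copies held 100.7 to 164.6 TPM. All 6 gene spans were 575 bp long, so here TPM and CPM rank the copies alike.

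Water supply was compared over all live libraries with legacy, conditioning water and conditioning host in the model. More members were lower in drought than were higher. Of 172 members that could be tested, 72 were called (41.9%), 65 lower and 7 higher in drought, at a DESeq2 adjusted p below 0.05. Over all 39955 genes tested, 23.3% were called, 12.8% lower and 10.5% higher. The median log2 fold change (drought minus well-watered) was -0.43 over the tested members and -0.03 over all tested genes, and 81.4% of the tested members were negative against 54.8% of all. The 72 members are not 72 separate results, since copies share reads. In such bulk samples, fewer cells of a type and less RNA per cell cannot be told apart. Outside arrays 1 and 6, which belong to one orthogroup, 51 of 151 tested members were called (33.8%), 44 lower and 7 higher. In the other runs of at least 4 genes, 51 of 159 tested genes were called (32.1%), 32 lower and 19 higher. In runs of 2 or 3 genes of an orthogroup the called share was 24.8%. Calls fell in 20 arrays, and in 5 arrays (1, 6, 15, 18 and 26) every copy was lower. EdgeR called 63 members. Limma voom called 18 members (13.1% of those tested) against 20.5% of all genes, so that the share of called members was then below that of all genes. When well-watered libraries below 30 M counts were left out, 25 were called, all lower (15.6%), against 11.1% of all genes.

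**Figure D2:**
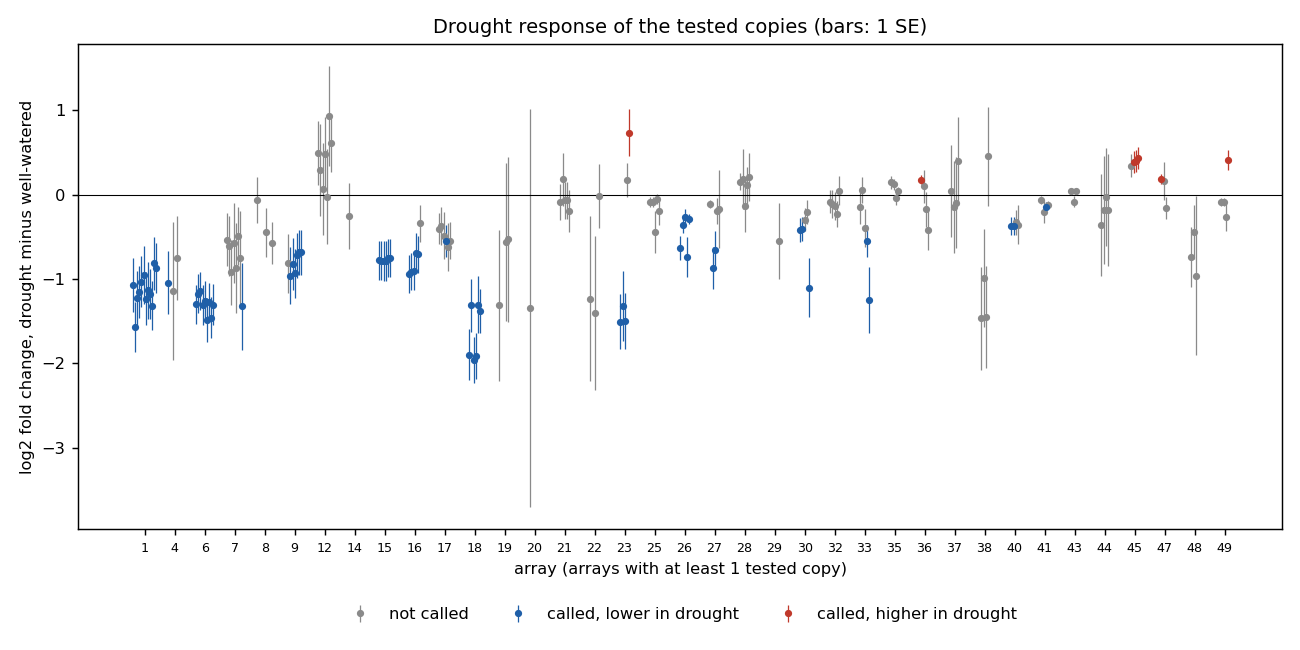
Log2 fold change of drought against well-watered plants for each of the 172 tested copies (points, bars are 1 SE), ordered by array on the x axis and by position within it. The 65 copies called lower (blue) make up whole rows in arrays 1, 6, 15, 18 and 26, and the 7 called higher (red) lie in arrays 23, 36, 45, 47 and 49.

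Arrays 6 and 1 lie close to each other on chromosome 17 and form most of orthogroup OG0000064, which has 27 genes between 11623413 and 12151054 (genome Td-KS_B6_1-REFERENCE-PanAnd-2.0a). All 27 were lower in drought, the 21 array members and the 6 genes outside the rows, with log2 fold changes from -1.57 to -0.81. The 9 copies of array 6 are on the minus strand and were all expressed. The 12 copies of array 1 are on the plus strand and were all below 1 CPM in the median. All 6 genes outside the arrays were expressed, with changes from -1.54 to -1.12.

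The top copy of array 6 was Td00002ba043398 (chr17:11700027-11700885), with 131.3 TPM. In drought its lowest, median and highest CPM were 1.91, 13.3 and 71.1, and in the well-watered plants they were 1.12, 21.7 and 312. The drought values lay wholly inside the well-watered range, which reached further up. By site, the medians in drought and with water were 8.74 and 17.4 CPM in CWR, 8.39 and 24.4 in WEL, 12.3 and 28.98 in SVR and 15.9 and 23.3 in TRI, so the well-watered median was the higher one each time. Its log2 fold change was -1.14 ± 0.23 (SE, DESeq2 adjusted p = 1.52e-05), and the log2 ratio of the medians was -0.71. The 5 highest libraries held 25.9% of its counts. The lowest change in this array was that of Td00002ba043401 (-1.49 ± 0.26, adjusted p = 3.91e-07), followed by Td00002ba043403 (-1.46 ± 0.24, adjusted p = 7.07e-08).

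The 9 copies of array 6 differed 12.8-fold in mean TPM, from 10.2 to 131.3, but their drought responses spanned only -1.49 to -1.14. No difference between neighbours was called in this row, with intervals of the 8 differences between -0.58 and 0.61. Non-whole values made up 65.2% to 83.5% in array 6, so its copies were in large part not counted apart. Their even responses are therefore not 9 separate results. All 9 copies had negative values in each of the 4 sites, from -0.63 in CWR to -1.96 in WEL. The copies of array 1 were less even, with values from -0.76 to 0.69 in CWR and 1 of 12 called among plants with lower plant numbers. In all 21 copies of both arrays SVR well-watered replicate 6 was the highest library. Without this library array 6 kept all 9 calls (-1.30 to -1.03) and array 1 kept 9 of 12. Limma voom called 1 copy in each array, with log2 fold changes of -0.86 to -0.58 in array 6.

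Array 18 on chromosome 4 (orthogroup OG0001020) held the most negative calls among the members with a mean normalised count of at least 50. Its 6 copies, all on the minus strand and with no overlap, were lower by -1.96 to -1.30, and 4 of them were expressed. Non-whole values made up 41.7% to 60.5% in this row, so its copies also share reads. Td00002ba013733 (chr4:24548555-24549930) changed by -1.96 ± 0.27 (adjusted p = 8.4e-11). Its lowest, median and highest CPM were 0.213, 1.86 and 18.3 under drought and 0.382, 4.65 and 159 with water. The ranges overlapped, while the well-watered median was higher in each site, for example 4.43 against 1.34 in CWR and 4.65 against 1.78 in TRI. Its neighbour Td00002ba013734 changed by -1.91 ± 0.28 (adjusted p = 3.36e-10), Td00002ba013731 at the start of the row by -1.89 ± 0.30 and Td00002ba013736 at its end by -1.38 ± 0.26.

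CWR well-watered replicate 3 was the highest library for all 6 copies of array 18. Without it all 6 remained called, with changes of -1.65 to -0.86, and limma voom called 5 of the 6. Between Td00002ba013734 and the next copy Td00002ba013735 (-1.30 ± 0.34) the difference was -0.57 ± 0.23, which did not pass the adjustment (limma adjusted p = 0.0652).

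Arrays 15 and 16 are both built of even repeats, and array 16 holds the 3 copies with the highest TPM of all members. In array 16 the 6 copies of 575 bp followed each other at distances of 7948 to 7980 bp from start to start. In array 15 (chr14:17244383-17292849) 3 pairs of opposite genes, shifted against each other by 36 bp, recurred every 23923 to 23938 bp. The 6 members of array 15 were lower by -0.79 to -0.75, and within a pair the models share the same stretch, so that each pair is 1 measurement. In array 16, 5 of 6 copies were lower, from -0.94 ± 0.22 at the first copy to -0.69 ± 0.24 at the fourth. The top copy Td00002ba011924 changed by -0.34 ± 0.22, which was not called (adjusted p = 0.275).

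The lowest, median and highest CPM of Td00002ba011924 (chr3:122440070-122440644) were 4.64, 44.98 and 195.4 under drought and 2.71, 47.6 and 378.4 with water. The medians of both groups were close and the spread within each was wide. Its neighbour Td00002ba011923 (chr3:122432091-122432665) had medians of 13.8 and 15.6 CPM and changed by -0.71 ± 0.22 (adjusted p = 0.00886). The difference between these neighbours was -0.20 ± 0.07 and lay just outside the threshold (limma adjusted p = 0.0505). In array 16 non-whole values made up 6.82% to 8.33% in the first 3 copies and 42.4% to 56.1% in the other 3, so copies 1 to 3 were the better separated ones. No call in either array was made by limma voom. With well-watered libraries of at least 30 M counts only, none was called either and the direction turned, to 0.35 to 0.45 in array 15 and 0.19 to 0.27 in array 16.

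Further calls came from rows in which members overlap or stand low. In array 26 on chromosome 15, all 5 overlapping models were lower, from -0.74 to -0.27. Its shortest expressed models changed most, while Td00002ba041175, a model of 21678 bp that spans the others, changed by -0.36 ± 0.10 (adjusted p = 0.00287). In array 9, 6 of 7 copies were lower, from -0.96 to -0.68, at medians below 1 CPM. WEL well-watered replicate 13, with 8.05 M counts, was the highest library for all 7 copies of array 9, and without it 2 copies were called, against 3 without CWR well-watered replicate 3 and none by limma voom. The remaining lower members were 3 in array 23, 3 in array 30, 2 each in arrays 27, 33 and 40, and 1 each in arrays 4, 7, 17 and 41. In array 27 both calls were lost without WEL well-watered replicate 14, and its top copy Td00002ba043318 changed by -0.11 ± 0.05 (adjusted p = 0.101).

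In array 33 on chromosome 8, 2 of 5 copies were called lower. Its first copy had median values of 2.00 CPM in drought and 2.31 with water, and a log2 fold change of -0.15 ± 0.20 that was not called. Td00002ba027537, the fourth copy, had medians of 8.45 and 13.2 CPM and was lower by -0.55 ± 0.19 (adjusted p = 0.0203). Td00002ba027538, the fifth, had medians of 0.133 and 0.146 CPM and was lower by -1.25 ± 0.39 (adjusted p = 0.00946), with 38.5% of its counts in its 5 highest libraries. Both were named after their values were seen. No difference between neighbours was called in this row, and the fourth minus the fifth copy gave -0.36 ± 0.45 on the log2 ratio scale (limma adjusted p = 0.66), opposite in sign to the difference of their fold changes. In array 12 on chromosome 7, whose 7 copies are 1019 to 1040 bp long and do not overlap, all were below 1 CPM, the responses were -0.02 to 0.93 with SEs of 0.35 to 0.59, and none was called.

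Higher levels in drought were seen in 7 members of 5 arrays. In array 45 on chromosome 11, 4 plus-strand models end at the same base and overlap, and 3 of them were higher. The lowest, median and highest CPM of Td00002ba033401, the shortest, were 0.717, 2.01 and 6.65 under drought and 0.317, 1.60 and 4.24 with water, a change of 0.43 ± 0.13 (adjusted p = 0.00813). Td00002ba033400 changed by 0.40 ± 0.13 and Td00002ba033399 by 0.39 ± 0.13, on partly the same reads. Td00002ba001182 of array 36, a gene of 51139 bp with 3 small models opposite to it, changed by 0.18 ± 0.05 (adjusted p = 0.00393, medians of 47.4 and 40.9 CPM). Td00002ba033775 of array 47 changed by 0.19 ± 0.06 (adjusted p = 0.0124, medians of 7.57 and 6.64 CPM). The other 2 were Td00002ba036996 of array 49 (0.41 ± 0.12 at a median of 0.17 CPM, named after its values were seen) and a copy of array 23. With the deep well-watered libraries alone, none of the 7 was called. The calls of array 45 were also lost with limma voom and without site CWR, and its values were negative among lower plant numbers (-0.14 to -0.11).

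Array 23 on chromosome 12 (OG0000194) was the one array with calls in opposite directions. Its first 3 copies lie on the minus strand, share a length of 1026 bp and were all lower, from -1.51 to -1.32. Td00002ba036242 (chr12:108341625-108342650) had median and highest CPM of 0.0766 and 1.25 under drought, where 11 of 63 plants were at 0, and of 0.171 and 4.24 with water. The groups overlapped, with the highest plants all well-watered. This gave a change of -1.51 ± 0.33 (adjusted p = 7.22e-05). Td00002ba036246 (chr12:108642670-108643689), the fifth copy and the only one on the plus strand, had a median of 0.438 CPM in drought and 0.392 in well-watered plants, of which 11 of 62 were at 0 against 1 of 63 in drought. The well-watered libraries were also the shallower ones, with a median of 26.1 against 52.8 M counts. Td00002ba036246 changed by 0.73 ± 0.28 (adjusted p = 0.0381) and was lower in TRI (-0.52). It was not called by edgeR or limma voom, or without sites CWR, WEL or SVR. The call was also lost without libraries below 10 M counts, with deep well-watered libraries only, and in either range of plant numbers.

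Between them stands Td00002ba036245, chosen after its values were seen, the only expressed copy of array 23 with 81.1% of its TPM. Its lowest, median and highest CPM were 1.08, 9.77 and 66.96 under drought and 1.23, 10.2 and 82.7 with water, so that the groups covered much the same range, and its log2 fold change was 0.17 ± 0.20 (adjusted p = 0.598). The step from the third copy to this one was -1.01 ± 0.33 (limma adjusted p = 0.023), and the step from it to the fifth was -0.43 ± 0.26 (adjusted p = 0.266). Non-whole values were few in this row, 4.46% to 13.6%, so its copies were largely counted apart. Of the 8 genes of the same orthogroup outside the array, 4 were called lower and none higher.

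**Figure D3:**
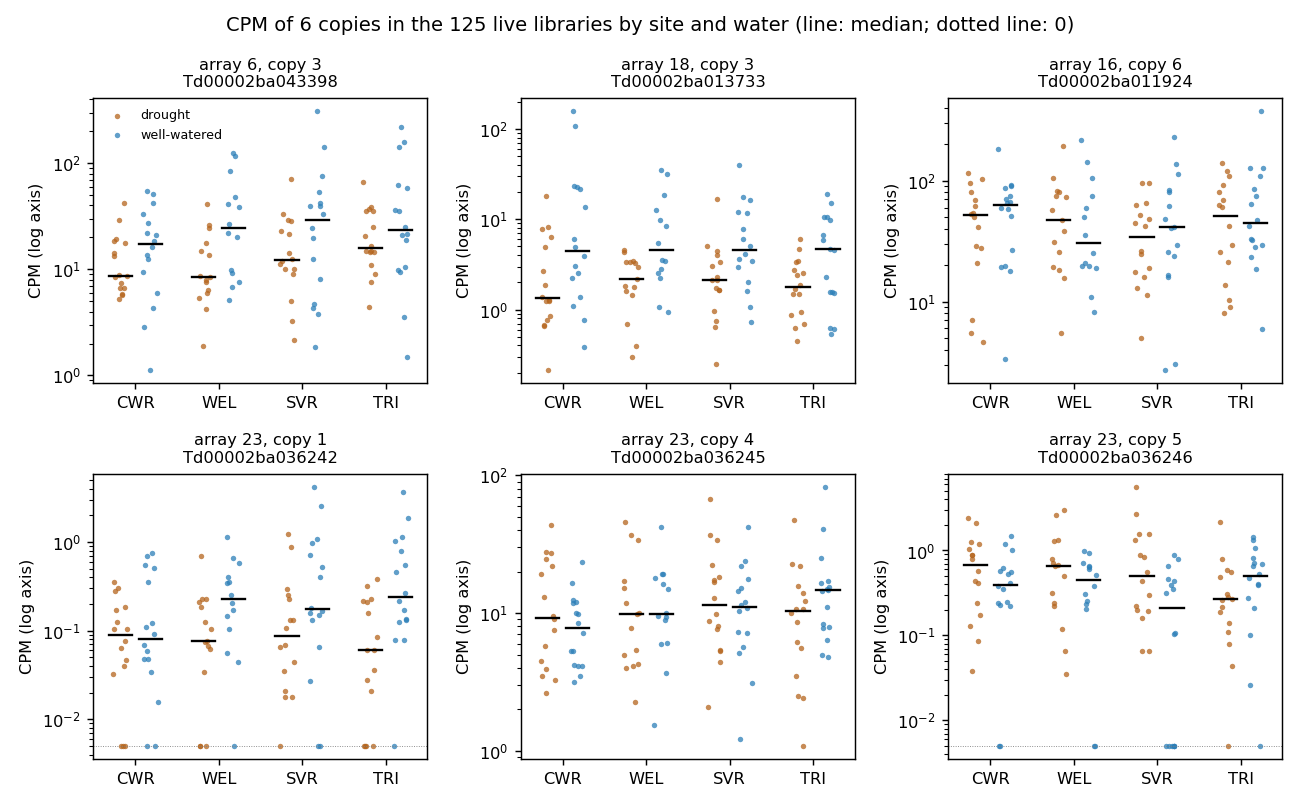
CPM on a log axis of 6 copies in the live libraries (points), by site on the x axis and by water treatment (brown drought, blue well-watered), with group medians as black lines and values of 0 on the dotted line. The well-watered medians stand above the drought medians in all 4 sites for the copies shown of arrays 6 and 18, whereas they do not for array 16 copy 6 or array 23 copy 4.

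Whether neighbouring copies answered differently to drought was tested on their log2 ratio, since a call in one copy and not in the next is no difference. Within arrays 7 pairs were called (6.6%), against 17.2% of the 33349 pairs of successive retained genes in the table. Other neighbouring pairs of 1 orthogroup had a similar share, 178 of 2284 called (7.79%). The median absolute difference was 0.10 within arrays, 0.04 in those other pairs and 0.23 over all pairs, at median SEs of 0.17, 0.06 and 0.21. Copies share reads, and the part of this in the low count was not tested. Of 37 pairs of overlapping copies 5 were called (median SE 0.05), and of 69 pairs without overlap 2 were called (median SE 0.21).

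Both calls without overlap had 1 weakly expressed partner. One is the step in array 23 given above. The other lies at the end of array 30 on chromosome 2, where Td00002ba009003 changed by -1.10 ± 0.35 and its neighbour Td00002ba009002 by -0.21 ± 0.14, a difference of 1.18 ± 0.40 (limma adjusted p = 0.0262). These 2 copies were chosen after their values were seen. The overlapping pairs called were small in size: Td00002ba041174 minus Td00002ba041175 in array 26 was -0.27 ± 0.07 (adjusted p = 0.00418), and Td00002ba041175 minus Td00002ba041176 was -0.08 ± 0.02 (adjusted p = 0.007). In array 43, Td00002ba032440 stands opposite to 2 long models with almost equal counts, Td00002ba032439 and Td00002ba032441. It differed from each by 0.15 ± 0.04 (adjusted p = 0.00635), although none of the 3 was called for drought itself. The last called pair was in array 49 (-0.46 ± 0.13, adjusted p = 0.00561).

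**Figure D4:**
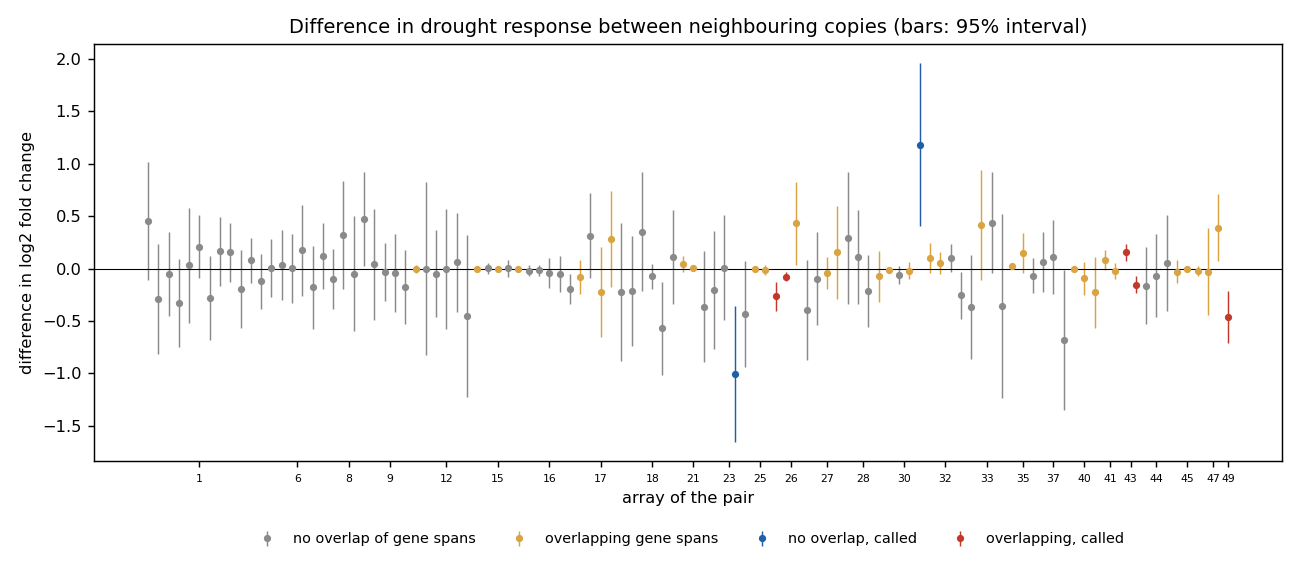
Difference in drought log2 fold change between neighbouring copies (upstream minus downstream) for the tested pairs within arrays, with 95% intervals, ordered by array on the x axis. Of the 7 called pairs, 2 without overlap (blue, arrays 23 and 30) differ by about 1 log2 unit, and the 5 overlapping ones (red) by 0.08 to 0.46.

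Across libraries, copies of the leading arrays went up and down together. The median Spearman correlation of CPM between copies of array 16 was 0.95 over the 63 drought and 0.96 over the 62 well-watered libraries, and in array 6 it was 0.80 and 0.88. It was 0.63 and 0.78 in array 18 and 0.43 and 0.45 in array 23. These values are descriptive, as the points share libraries, depth and, in part, reads. In array 35 on chromosome 1, whose 4 overlapping copies were all expressed with none called for drought, the median was 0.12 and 0.17.

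The drought responses of several arrays differed with the plants compared. Within each water treatment the libraries were split at the median plant number, which gave 32 drought and 31 well-watered plants with lower numbers and 31 and 31 with higher numbers. The test of the difference between the lower and higher numbers was chosen after seeing the data. It was called for 48 of 161 members (29.8%), against 24.2% of 37996 genes, and 39 of the 48 were more negative among the higher numbers. In array 16 the log2 fold changes were 0.41 to 0.71 among the lower numbers, with Td00002ba011924 called higher (adjusted p = 0.0365), and -1.91 to -1.33 among the higher, with all 6 copies called lower. In array 15 they were 0.56 to 0.62 and -1.75 to -1.69.

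The largest gap was in array 44 on chromosome 11, whose 4 copies were all below 1 CPM. They stood at 1.04 to 1.77 among the lower and -4.22 to -2.86 among the higher numbers, and over all libraries none was called (-0.36 to -0.03). The 5 highest libraries held 47.7% to 55.7% of the counts of these copies. In array 37 on chromosome 1, also below 1 CPM, the values were 1.18 to 1.41 and -2.16 to -1.09. Array 45 stood the other way round, with -0.14 to -0.11 among the lower and 0.72 to 0.90 among the higher numbers. Arrays 6 and 18 were negative in both subsets. The copies of array 6 lay between -1.49 and -1.22 among the lower and between -1.34 and -0.97 among the higher numbers, and those of array 18 between -2.19 and -1.24 and between -1.71 and -0.67, with no difference called in either array. Over all members, 13 were called lower in both subsets, while 16 of the 65 called lower over all libraries were positive among the lower numbers. For these counts, and for the directions of the differences between subsets, no share over all genes is given here.

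**Figure D5:**
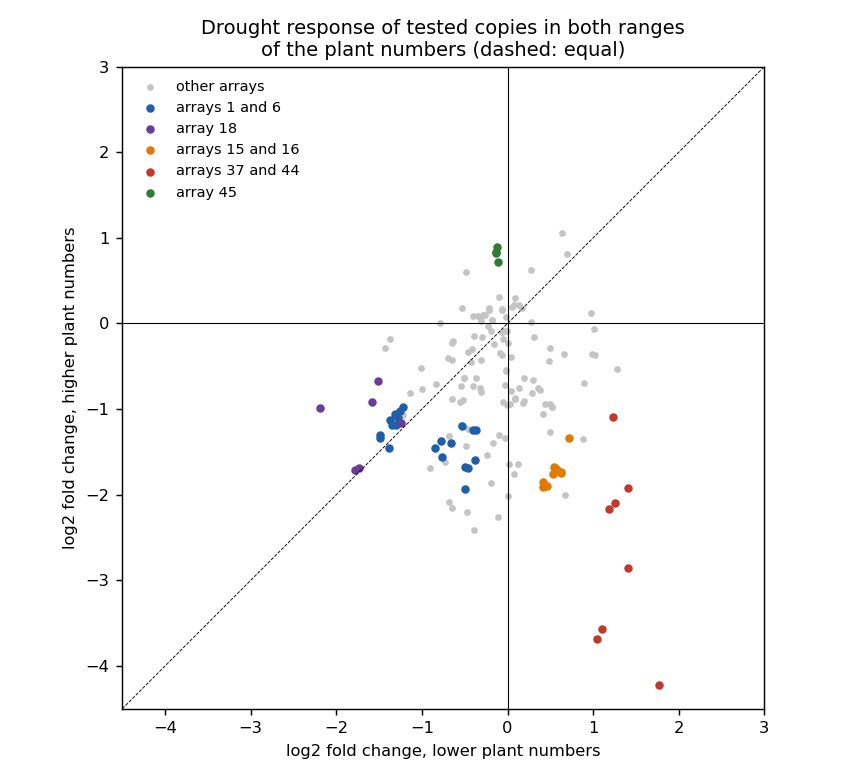
Drought log2 fold change of the tested copies among plants with lower (x axis) and higher (y axis) plant numbers, each point 1 copy, with the dashed line marking equal values. Copies of arrays 1 and 6 (blue) and 18 (violet) lie in the lower left, arrays 15, 16, 37 and 44 (orange, red) are positive on the x axis and negative on the y axis, and array 45 (green) is the reverse.

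One question of the study was whether plants answered drought differently with inocula of different precipitation legacy. No member was called for the interaction of legacy and drought by DESeq2 (0 calls), against 11 of 43468 genes in the table (0.0253%). EdgeR called no member either. At an unadjusted DESeq2 p below 0.05 there were 10 members and 1411 of all genes. These last counts carry no adjustment for the number of tests and are not calls. Separated 95% confidence intervals of both responses were found for no member and for 0.525% of all genes. At such small shares over all genes, the lack of calls in so few members says little about them. The lowest unadjusted p belonged to Td00002ba013731 of array 18 (0.00884), which changed by -2.70 in high-legacy and -1.16 in low-legacy plants. The response of Td00002ba043398 of array 6 was -1.18 and -1.34, and that of Td00002ba011924 of array 16 was -0.15 and -0.52. Of the called members, 47 of the 65 lower and 6 of the 7 higher had the same sign in all 4 sites. This is favoured by the calls having been made on these libraries. The like share over all called genes is not given here, so these counts cannot be read as a trait of the members.

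Plants with a mock inoculum also expressed the leading copies. Without TMM factors, Td00002ba043398 had a median of 26.9 CPM (16.6 to 31.7, n = 4) in mock drought and 20.6 CPM (15.4 to 37.02, n = 3) in mock well-watered plants. Td00002ba011924 had medians of 71.95 and 77.3 CPM, and Td00002ba013733 of 3.36 and 2.61. The mock groups overlapped for each of these copies, and no test was run on them. The fourth mock well-watered library held 6045 counts in all and was left out of these values.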

How the data were processed

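Per the study's methods, polyadenylated RNA was made into strand-preserving libraries, adaptors were removed (cutadapt), reads were placed on the gamagrass genome named above (HISAT2), and duplicate alignments were dropped (SAMtools). The deposited table, which the authors made with featureCounts 2.0.5, holds raw expected counts per gene span. A read overlapping several genes was divided among them, and no strand was set. Multi-mapped reads entered by their primary alignment, as fractions. Orthogroups come from the table the authors deposited (OrthoFinder), which lists 32785 genes in 21658 orthogroups and all 285 members.

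Counts were rounded to whole numbers. Drought was tested on the live libraries with DESeq2 1.42.0 (Wald test, two-sided, Benjamini-Hochberg adjustment over all genes left by its independent filter) in a model of legacy, conditioning water, conditioning host and water. Its interaction with legacy was fitted with water and legacy alone. Neighbouring copies were compared with limma 3.58.1 on log2 ratios of their CPM, weighted by voom, for successive genes kept by filterByExpr (33519 genes). Pairs with identical counts could not be tested. These ratios are on another scale than the DESeq2 fold changes, so that a difference need not equal that of the 2 fold changes, most of all for copies with few counts. CPM carries TMM factors (edgeR 4.0.16) and TPM the gene span. On simulated counts of 44328 genes the DESeq2 test recovered 66% of drought changes of 0.5 and 88% of changes of 1 on the log2 scale. The pair test recovered 31.5% and 67% over 33619 pairs. Unchanged genes made up 16 of the 170 DESeq2 calls, and unchanged pairs 19 of the 216 pair calls. Changes were placed only in genes with a mean count of at least 50, which 82 members reach. Each gene was drawn independently, so these rates do not cover weaker copies or copies that share reads. The labels give no pots, so p-values measure the spread between plants. No per-sample column was left unmapped.

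The named copies are the top copy by TPM in the 10 largest arrays, up to 6 called copies per direction with the largest change, a mean count of 50 and 1 sign in all sites (5 were higher), the copies of the 6 pairs with the smallest p, and the opposite calls of array 23. The members, lists and tests were chosen with earlier results of these data known. Alternatives tried were edgeR, limma voom, TMM size factors, a filter on low counts, water alone, shallow libraries, each site and single libraries left out, and both ranges of plant number.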

Additional observations from a re-analysis of the deposited data

Results flagged for a closer look

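Among the named copies, 5 had 1 mock drought library of 4 far from the other 3 by Dixon's criterion. By this criterion chance singles out about 1 group in 20 where values are normally distributed. Several of these CPM values lie near 0 and the number of groups examined is not given, so that rate cannot be applied here. The high value was 0.926 CPM for Td00002ba032575 (others 0 to 0.023), 2.05 CPM for Td00002ba036284 (others 0.319 to 0.438) and 0.633 CPM for Td00002ba036242 (others 0 to 0.041). It was 55.2 CPM for Td00002ba001182 (others 40.8 to 42.7) and 23.1 CPM for Td00002ba041174 (others 6.95 to 9.49).

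The drought response differed between lower and higher plant numbers in 12 named copies, by a DESeq2 interaction chosen after seeing the data. The same test called 24.2% of 37996 genes, so such a difference is not particular to these copies. The differences are given as higher minus lower on the log2 scale. In array 16 they were -2.23 for Td00002ba011923 and -2.09 for Td00002ba011924, and in array 8 -1.66 for Td00002ba033018. In array 26 they were -1.30 for Td00002ba041174, -0.69 for Td00002ba041175 and -0.53 for Td00002ba041176. In array 45 they were 1.04 for Td00002ba033401, 0.98 for Td00002ba033400 and 0.97 for Td00002ba033399. In array 43 they were 0.36 for Td00002ba032440 and 0.22 for both Td00002ba032441 and Td00002ba032439. The cause was not tested.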

How the results depend on the processing

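The count of members called for drought (72, 7 higher and 65 lower) stayed within 1.5 times with edgeR, TMM size factors, a filter on low counts, water alone, libraries below 10 M counts left out, and sites SVR or TRI left out. It was 18 with limma voom (3 higher, 15 lower), 13.1% of tested members against 20.5% of all genes, and 25 with well-watered libraries of at least 30 M counts only (0 higher, 25 lower), 15.6% against 11.1%. Without site CWR 2 were higher, and without site WEL 47 were called, 42 of them lower. Among lower plant numbers 22 were called (1 higher, 21 lower), 13.7% against 15.1% of all genes, and among higher plant numbers 88 (10 higher, 78 lower), 54% against 30.9%. Leaving out single well-watered libraries that led an array, chosen after seeing the data, gave 67 to 73 calls, 7 to 8 higher and 60 to 65 lower. The count of called pairs of neighbouring copies (7) became 3 with deep well-watered libraries and 4 without site CWR. It was 4 among lower and 15 among higher plant numbers, and 3 when overlapping pairs were left out before adjustment. Over all neighbouring pairs the called share was 17.2% in the main test. In these settings it was 7.4%, 9.61%, 9.92%, 26.8% and 18.4%, in the same order. The called share of pairs within arrays was below that of all pairs in each setting. The rise to 15 thus went with a rise over all pairs. Signs turned for Td00002ba011923 with deep well-watered libraries (0.22), and among lower plant numbers for Td00002ba011923 (0.54), Td00002ba011924 (0.71), Td00002ba033401 (-0.13), Td00002ba033400 (-0.13), Td00002ba033399 (-0.14) and the difference between Td00002ba041174 and Td00002ba041175 (0.0073). This list is not complete. With lower plant numbers the signs of Td00002ba033018 (0.01), Td00002ba032439 and Td00002ba032441 (both -0.07) turned as well, as did array 16 with deep well-watered libraries (0.19 to 0.27). Over the named copies, 71 other values lost their call and 5 gained one. The shares of expressed copies moved little with the CPM limit (91 members at 0.5 CPM, 64 at 2 CPM). The cause of these shifts was not tested. No paired analysis was possible because the labels give no replicate numbers that pair plants across groups.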
